A study of Mus musculus with 12 samples.

Results

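The genes described here are hormone and transmitter receptors with 1 accessory protein: the neuropeptide Y receptor Npy1r, the serotonin receptor Htr1b, the muscarinic acetylcholine receptor Chrm2, the relaxin family receptor Rxfp2, the thyrotropin receptor Tshr, the corticotropin receptor Mc2r and Mrap, the accessory protein that Mc2r needs to reach the cell surface. These are 7 of 19938 genes measured, and they were picked by symbol because their array signals in these same samples changed strongly with differentiation or genotype. Their own values are therefore given as a description, without tests. Each was read by 1 probe set: 10572070 for Npy1r, 10595324 for Htr1b, 10537298 for Chrm2, 10527713 for Rxfp2, 10397606 for Tshr, 10459611 for Mc2r and 10436804 for Mrap.

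RNA was profiled on 12 expression arrays from C57BL6 mouse embryonic fibroblasts taken at embryonic day 14, in 4 groups of 3 samples. The groups were D1D2KO differentiated, D1D2KO undifferentiated, WT differentiated and WT undifferentiated cells, where D1D2KO cells lack the diacylglycerol acyltransferases DGAT1 and DGAT2, which complete triacylglycerol synthesis. All cells were grown in DMEM with 10% fetal bovine serum. Differentiated cells had been turned into adipocytes with dexamethasone (1 µM), isobutylmethylxanthine (500 µM), insulin (5 µg/ml) and troglitazone (15 µM), then insulin and troglitazone, then medium with serum. Undifferentiated cells are labelled fibroblasts and differentiated cells adipocytes. The cocktail itself raises cAMP, since isobutylmethylxanthine blocks phosphodiesterases, and it holds a glucocorticoid, insulin and a PPARγ agonist. Differentiated cells of both genotypes shared this exposure, so its part in any receptor's change cannot be told apart from that of adipocyte formation.

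All of these receptors signal through G proteins, and most of them act on cyclic AMP. Receptors coupled to Gs (Tshr, Mc2r, Rxfp2) raise it, and receptors coupled to Gi (Npy1r, Htr1b, Chrm2) lower it. In fat cells cyclic AMP drives protein kinase A, which sets off lipolysis, the release of fatty acids from stored triacylglycerol. Thyrotropin and corticotropin are known lipolytic hormones in rodent fat cells, and neuropeptide Y is a known antilipolytic one.

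Promoter sequences from RefSeq (GRCm38.p6), 300 bases that span the start of the gene, were found for 4 of the 7 genes: Npy1r, Htr1b, Chrm2 and Rxfp2, which are the 4 whose signal was lower in differentiated cells. Those of Npy1r (chr8:66697172-66697471, plus strand) and Chrm2 (chr6:36387834-36388133, plus strand) are shown because the Npy1r signal differed by state about equally in both genotypes and the Chrm2 signal mostly in WT. Capitals mark the E-box CANNTG in Npy1r and CCAAT, here on the opposite strand, in Chrm2, 5′ to 3′.
Npy1r: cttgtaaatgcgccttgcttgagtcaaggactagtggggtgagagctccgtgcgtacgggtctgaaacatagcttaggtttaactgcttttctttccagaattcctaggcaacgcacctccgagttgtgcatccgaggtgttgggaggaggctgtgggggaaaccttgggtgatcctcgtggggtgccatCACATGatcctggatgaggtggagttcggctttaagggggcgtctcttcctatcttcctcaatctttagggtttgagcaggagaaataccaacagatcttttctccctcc
Chrm2: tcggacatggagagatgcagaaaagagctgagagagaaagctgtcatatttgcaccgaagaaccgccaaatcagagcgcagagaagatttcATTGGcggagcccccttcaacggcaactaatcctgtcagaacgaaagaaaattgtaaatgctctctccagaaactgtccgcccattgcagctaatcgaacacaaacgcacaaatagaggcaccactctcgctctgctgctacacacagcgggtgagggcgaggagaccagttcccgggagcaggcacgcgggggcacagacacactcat
The motifs were searched as letters on both strands. None of these 4 promoters held TATAAA (the TATA box, in 14.2% of 27025 RefSeq promoters of the same length), TGACG (the core of cyclic AMP response elements, in 21.0%), AGGTCA (a core of nuclear receptor sites, in 16%), AGAACA (a core of glucocorticoid receptor sites, in 19.0%) or TTGCNNAA (the C/EBP core, in 10.8%). CANNTG stood at position -60 in Npy1r and at -185 in Rxfp2, counted from the start of the gene, and 72.1% of all promoters held it. CCAAT stood at -159 in Chrm2 and at 2 places in Htr1b, and 37.9% held it. The bases G and C made up 51.7% of the Npy1r window and 52.7% of the Chrm2 window, against a median of 52.7% over all promoters.

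The arrays were close to each other, with column medians of 5.61 to 5.69 and Pearson correlations within a group of 0.993 to 0.997 across genes, and 3 arrays per group limit the precision of every value. Signals are on a log2 scale, so a difference of 1 is a 2-fold change of signal, and the standard error (SE) is that of a limma fit to all 12 samples. The lower quartile of an array lay between 4.10 and 4.26, and signals near it or under it cannot be told from background. No embryo or culture is named for the samples, which are called biological replicates, so every p-value measures the spread between these samples. Dgat1 and Dgat2, the genes that define the genotype, had every D1D2KO sample below every WT sample in both states: Dgat1 kept 38.2% of the WT signal in differentiated and 39.4% in undifferentiated cells, and Dgat2 31.4% and 72.0%. The signal left in D1D2KO differentiated cells was still high, with a mean of 8.02 for Dgat1 (percentile 83.7 of all genes) and 8.55 for Dgat2 (percentile 89.5). What the probe sets read there was not tested. Checked against its markers, the adipocyte label held: all 10 rose with differentiation in each genotype (limma, Benjamini-Hochberg adjusted p under 0.05), with a median difference of 4.61 in D1D2KO and 4.26 in WT. Fibroblast markers fell in 9 of 10 cases in D1D2KO and in 8 of 10 in WT. Macrophage markers fell in 6 of 7 cases in each genotype, with a median difference of -1.08 in D1D2KO and -1.04 in WT, and their mean signal was 8.04 to 8.36 in differentiated and 9.24 to 9.38 in undifferentiated samples of both genotypes. Neuron and glia markers fell in 5 of 10 cases in D1D2KO and 6 of 10 in WT, Gfap with differences of -2.35 and -2.21 and Fabp7 with -2.68 and -2.14. The part of these cell types in the lower Npy1r, Htr1b, Chrm2 and Rxfp2 signals was not tested. In whole cultures fewer cells of a type and less RNA per cell cannot be told apart.

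**Figure D1:**
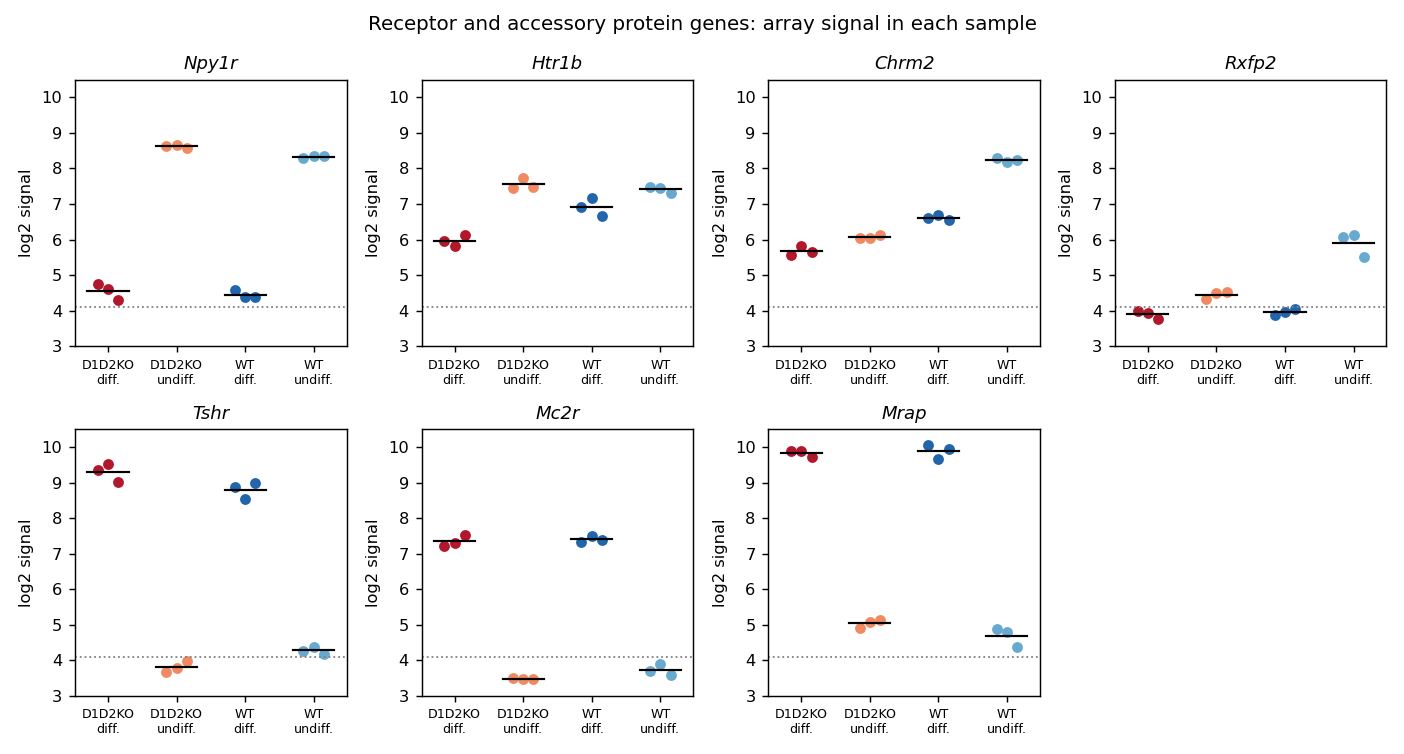
Log2 array signal (vertical axis) of each of the 7 genes in the 12 samples, grouped on the horizontal axis as D1D2KO differentiated, D1D2KO undifferentiated, WT differentiated and WT undifferentiated cells. Points are samples, bars are means of 3, and the dotted line at 4.10 is the lowest lower quartile of any array: Tshr, Mc2r and Mrap are high in differentiated cells, Npy1r is high in undifferentiated cells, and Chrm2 and Rxfp2 stand highest in WT undifferentiated cells.

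Between differentiated and undifferentiated cells the 7 genes split into 3 that were higher (Tshr, Mc2r, Mrap) and 4 that were lower (Npy1r, Htr1b, Chrm2, Rxfp2), in both genotypes. In none of the 7 did the samples of the states overlap, in either genotype, which follows from how they were picked. Over all genes the states did not overlap for 48.1% in D1D2KO and 43.9% in WT. For scale, 15.4% of all 19938 genes rose and 21.2% fell with differentiation in D1D2KO cells, and 14.7% rose and 19.4% fell in WT cells, at a Benjamini-Hochberg adjusted p under 0.05 in the limma fit. The difference was at least 2-fold for 5 of the 7 genes in D1D2KO and for 6 in WT, against 6.50% and 4.59% of all genes.

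Npy1r, the Y1 receptor for neuropeptide Y and peptide YY, was among the brighter genes of undifferentiated cells and close to background in differentiated ones. Its signal was 4.75, 4.60 and 4.30 in D1D2KO differentiated cells, against 8.63, 8.67 and 8.57 in D1D2KO undifferentiated cells. In WT it was 4.59, 4.37 and 4.38 in differentiated cells, against 8.30, 8.36 and 8.36 in undifferentiated cells. Every differentiated sample lay more than 3 log2 units below every undifferentiated one. The difference was -4.07 in D1D2KO and -3.89 in WT (SE 0.10 each), which are 16.8-fold and 14.8-fold lower signals. The differentiated signals lay close to the lower quartile of the arrays, so the size of both folds is uncertain. The group mean stood at percentile 23.6 of all genes in D1D2KO differentiated cells and 90.4 in D1D2KO undifferentiated cells, and at 24.2 and 86.1 in the WT states. Between genotypes D1D2KO differed from WT by 0.29 in undifferentiated cells, where the samples did not overlap, and by 0.11 in differentiated cells, where they did. The last difference was -0.03 after quantile normalization.

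Of 8 other measured genes of the neuropeptide Y system, 2 fell with differentiation in each genotype and 0 rose (limma; 0 rose at an unadjusted p under 0.05 as well). The falls are 25% of the list, beside 21.2% of all genes in D1D2KO and 19.4% in WT. The receptor gene Npy6r had signals of 3.64, 4.12 and 4.19 in D1D2KO differentiated cells against 5.01, 5.17 and 4.86 in undifferentiated ones, a difference of -1.03 (SE 0.15, limma, Benjamini-Hochberg adjusted p = 3.94e-05). In WT it fell, with a difference of -0.76 (adjusted p = 0.000968). The differentiated signals lay near or under the lower quartile of the arrays, so the size of both falls is uncertain. Dpp4, the peptidase that trims neuropeptide Y so that it no longer binds the Y1 receptor, fell, with differences of -1.40 in D1D2KO and -0.91 in WT (SE 0.09 each, limma, adjusted p = 1.68e-09 and 4.97e-07). After differentiation Dpp4 was also lower in D1D2KO than in WT, by -0.74 (adjusted p = 6.52e-05). Npy2r, Npy4r and Npy5r, the other receptors measured, had group means near the lower quartile of the arrays and passed no test. Npy5r is the neighbour of Npy1r in the genome. Its means were 3.68 in D1D2KO differentiated, 3.79 in D1D2KO undifferentiated, 3.59 in WT differentiated and 3.58 in WT undifferentiated cells, all near background, and no difference with differentiation passed the test.

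The gene whose profile was most like that of Npy1r was Lepr, the leptin receptor. After each profile was centred on its own mean, the root mean square difference was 0.104 over 12 samples (r = 0.999), against 0.429 for the next gene, the lectin Clec4n, and 0.642 for the collagenase Mmp13. Lepr differed by -4.18 in D1D2KO and by -3.76 in WT. The likeness is over samples that fall into 2 states and carries no test.

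Htr1b, the serotonin 1B receptor, was lower in differentiated cells of both genotypes, and more so in D1D2KO. Its signal was 5.95, 5.82 and 6.14 in D1D2KO differentiated cells, against 7.44, 7.73 and 7.48 in D1D2KO undifferentiated cells. In WT it was 6.92, 7.17 and 6.65 in differentiated cells, against 7.48, 7.44 and 7.32 in undifferentiated cells. All D1D2KO differentiated samples lay below all others. The difference with differentiation was -1.58 in D1D2KO and -0.50 in WT (SE 0.12 each), so the D1D2KO response was lower by -1.08 (SE 0.17). In differentiated cells Htr1b kept 52.1% of the WT signal, and in undifferentiated cells, where the genotypes overlapped, 110.1%. The genes with the most similar profile were the collagen prolyl hydroxylase P4ha3 (root mean square difference 0.140), the actin cross-linker Actn1 (0.160) and the activin subunit Inhba (0.166), each with r of 0.968 to 0.979 over 12 samples.

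Among 18 other measured genes of the serotonin system, 3 rose and 2 fell in D1D2KO, and 0 rose and 6 fell in WT (limma; 2 rose in WT at an unadjusted p under 0.05). The falls are 11.11% of the list in D1D2KO and 33.33% in WT, beside 21.2% and 19.4% of all genes, and the rises in D1D2KO 16.67%, beside 15.4%. With 1 sample left out the D1D2KO counts came down to as few as 1 rise and 1 fall, and the WT falls to 3. Htr2a, a Gq-coupled serotonin receptor, was the receptor with the largest fall in this list. It had 6.37, 6.63 and 6.70 in D1D2KO differentiated cells against 8.19, 8.26 and 8.17 in undifferentiated ones, a difference of -1.64 (limma SE 0.09, Benjamini-Hochberg adjusted p = 1.26e-10). In WT Htr2a fell, with a difference of -1.21 (adjusted p = 8.94e-09), and differentiated D1D2KO cells lay below WT by -0.53 (adjusted p = 0.000889). The serotonin-degrading monoamine oxidase Maoa fell, with differences of -0.32 in D1D2KO and -0.33 in WT (SE 0.10 each, limma, adjusted p = 0.0183 and 0.019). The Maoa calls ended without D1D2KO differentiated replicate 3 or D1D2KO undifferentiated replicate 2, and without WT differentiated replicate 1 or WT undifferentiated replicates 2 or 3. Those of Htr5b and Htr2c in D1D2KO, both rises, each ended without any 1 of several samples, D1D2KO undifferentiated replicate 3 and D1D2KO differentiated replicate 3 among them. The WT falls of Ddc and Htr3a ended without WT undifferentiated replicate 2, and that of Htr3a also without WT undifferentiated replicate 3 or WT differentiated replicate 3. The receptors Htr1a, Htr1d and Htr7 passed no test in any comparison. Htr1f, a Gi-coupled relative of Htr1b, fell, with a difference of -0.71, in WT (adjusted p = 0.000532) and differed by -0.15 (SE 0.14) in D1D2KO, which did not pass the test.

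Chrm2, the M2 muscarinic receptor, which slows the heart and is also found in smooth muscle, had its largest difference between the genotypes. Its signal was 6.03, 6.04 and 6.12 in D1D2KO undifferentiated cells, against 8.29, 8.18 and 8.23 in WT undifferentiated cells. After differentiation it was 5.57, 5.81 and 5.65 in D1D2KO cells, against 6.61, 6.69 and 6.56 in WT cells. The groups did not overlap in either state, and even undifferentiated D1D2KO cells lay below differentiated WT cells. D1D2KO cells had 22.3% of the WT signal when undifferentiated (difference -2.17, SE 0.08) and 52.0% when differentiated (-0.94). With differentiation Chrm2 differed by -0.39 in D1D2KO and by -1.61 in WT.

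The muscarinic receptor Chrm3, which couples to Gq and contracts smooth muscle, stood lower in D1D2KO as well. It had 6.20, 6.20 and 6.09 in D1D2KO undifferentiated cells against 7.16, 7.18 and 6.97 in WT undifferentiated cells, a difference of -0.94 (SE 0.09, limma, Benjamini-Hochberg adjusted p = 8.83e-06). In differentiated cells the difference was -0.51 (adjusted p = 0.00184). The serotonin receptor Htr2b, also Gq-coupled, showed the same order: 5.40, 5.48 and 5.66 in D1D2KO undifferentiated cells against 6.84, 6.96 and 6.88 in WT undifferentiated cells, a difference of -1.38 (limma, SE 0.11, adjusted p = 1.01e-06). After differentiation it was -0.71 (adjusted p = 0.000653). Rgs5, a regulator of G-protein signalling known from pericytes and vascular smooth muscle, was lower by -1.69 in undifferentiated and -1.86 in differentiated D1D2KO cells (SE 0.10 each, limma, adjusted p = 1.83e-08 and 4.21e-09).

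Smooth muscle markers shared the direction of these genotype differences. In differentiated cells the gap was narrower for Chrm2, Chrm3 and Htr2b. It was slightly wider for Rgs5, and the median gap of the markers was wider as well. All 7 measured markers (Acta2, Tagln, Myh11, Cnn1, Des, Smtn, Lmod1) were lower in D1D2KO than in WT in both states, with a median difference of -1.29 in differentiated and -0.54 in undifferentiated cells (limma, adjusted p under 0.05 for each gene). The mean signal over the 7 markers was 7.80 to 7.89 in D1D2KO differentiated, 8.57 to 8.83 in D1D2KO undifferentiated, 9.27 to 9.52 in WT differentiated and 9.66 to 9.76 in WT undifferentiated samples. Myosin heavy chain 11 (Myh11) differed by -2.50 in differentiated and -2.39 in undifferentiated cells, and desmin (Des) by -2.40 and -1.48. Without 1 of D1D2KO undifferentiated replicates 1 or 3 or WT undifferentiated replicates 1 or 2, the undifferentiated calls of Acta2 and Smtn ended, and that of Lmod1 ended without either of the named D1D2KO samples. Cardiac muscle markers as a list did not share this direction. Of 8 measured, 3 were higher and 1 lower in D1D2KO than in WT in each state (limma, adjusted p under 0.05). These are 37.5% and 12.5%, beside 6.25% and 7.42% of all genes in differentiated and 4.40% and 3.62% in undifferentiated cells. The median difference of the 8 was 0.33 in differentiated and 0.42 in undifferentiated cells. The part of smooth or cardiac muscle cells in the Chrm2, Chrm3, Htr2b and Rgs5 differences was not tested. Chrm2 was most like the developmental gene Mab21l2 (root mean square difference 0.220), the calmodulin regulator Pcp4 (0.226) and the imprinted gene Nnat (0.238), with r of 0.973 to 0.982 over 12 samples.

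**Figure D2:**
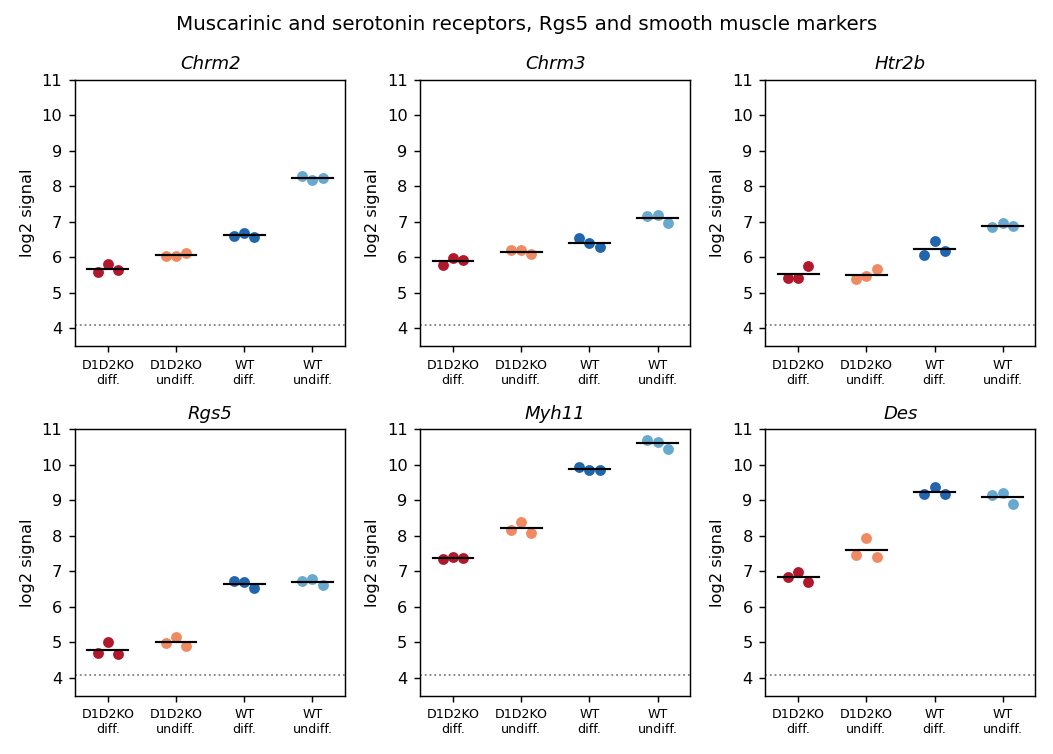
Log2 array signal (vertical axis) of Chrm2, Chrm3, Htr2b, Rgs5 and the smooth muscle markers Myh11 and Des in the 12 samples, grouped on the horizontal axis by genotype and state. Points are samples, bars are means of 3 and the dotted line at 4.10 is the lowest lower quartile of any array: in all 6 genes every D1D2KO sample lies below every WT sample of the same state.

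The rest of the acetylcholine system, 17 genes, had 1 that rose and 4 that fell in D1D2KO and 0 that rose and 4 that fell in WT (limma; 1 rose in WT at an unadjusted p under 0.05). The falls are 23.53% of the list in each genotype, beside 21.2% and 19.4% of all genes. Slc5a7, which carries choline into cells, had 5.16, 5.15 and 5.10 in D1D2KO differentiated cells against 6.36, 6.31 and 6.19 in undifferentiated ones, and it fell, with a difference of -1.15, in each genotype (SE 0.09, limma, Benjamini-Hochberg adjusted p = 2.19e-08 in D1D2KO and 3.38e-08 in WT). The nicotinic receptor subunit Chrnb1 fell, with differences of -0.76 in D1D2KO and -0.70 in WT (adjusted p = 1.63e-05 and 4.75e-05). Bche, the butyrylcholinesterase, was the 1 gene that rose: by 1.2 in D1D2KO (SE 0.13, adjusted p = 1.04e-06), against 0.23 in WT, which did not pass the test.

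Rxfp2, the receptor for insulin-like peptide 3, stood well above the lower quartile of the arrays in WT undifferentiated cells and near or under it in the other groups. It had 4.32, 4.50 and 4.51 in D1D2KO undifferentiated cells, against 6.06, 6.12 and 5.51 in WT undifferentiated cells. In differentiated cells it had 4.0, 3.93 and 3.76 in D1D2KO and 3.87, 3.95 and 4.05 in WT, and all 6 of these lay under the lower quartile of every array. Undifferentiated D1D2KO cells had 36.6% of the WT signal (difference -1.45, SE 0.13). The difference with differentiation was -0.55 in D1D2KO and -1.94 in WT, and the lower end of each is set by signals that cannot be told from background. WT undifferentiated replicate 3 was the lowest of its group, and without it the genotype difference was -1.64 and the WT response -2.13. The related receptor Rxfp1, which binds relaxin, fell, with differences of -0.66 in D1D2KO and -0.68 in WT (SE 0.12 each, limma, Benjamini-Hochberg adjusted p = 0.000364 and 0.000356), at group means of 3.60 to 4.45. The genes most like Rxfp2 were the collectin Colec10, the collagen Col10a1 and the immune checkpoint protein Vtcn1 (root mean square differences 0.264, 0.277 and 0.289, n = 12).

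Tshr, the thyrotropin receptor, was high in differentiated cells and low in undifferentiated ones. Its signal was 9.36, 9.53 and 9.03 in D1D2KO differentiated cells, against 3.68, 3.79 and 3.97 in D1D2KO undifferentiated cells. In WT it was 8.88, 8.54 and 9.0 in differentiated cells, against 4.26, 4.38 and 4.18 in undifferentiated cells. The differences were 5.49 in D1D2KO and 4.53 in WT (SE 0.13 each), or 45.1-fold and 23.1-fold. The undifferentiated signals lay near or under the lower quartile of the arrays, so both folds are uncertain in size. Between genotypes Tshr differed by 0.50 in differentiated cells and by -0.46 in undifferentiated cells, without overlap, although the nearest differentiated samples of the genotypes were 9.03 and 9.0. Of the thyroid follicle markers, 0 of 5 measured passed the test with differentiation in either genotype (limma; 0 at an unadjusted p under 0.05 as well), and their mean signal was 5.56 to 5.76 in D1D2KO differentiated and 5.56 to 5.62 in D1D2KO undifferentiated samples.

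The other receptors of the leucine-rich repeat family of Tshr went the other way or did not pass the test. Lgr5, a receptor for R-spondins and a known stem cell marker, fell, with differences of -2.12 in D1D2KO and -1.47 in WT (SE 0.13 each, limma, Benjamini-Hochberg adjusted p = 6.29e-10 and 9.04e-08). It had 7.16, 7.43 and 7.53 in D1D2KO differentiated cells and 7.90, 8.32 and 7.69 in WT differentiated cells, a difference of -0.60 (adjusted p = 0.00666). Lgr6, its close relative, fell, with differences of -1.0 in D1D2KO and -1.14 in WT (adjusted p = 4.51e-07 and 1.31e-07). Fshr, the follitropin receptor, had group means of 4.11 to 4.40 and passed no differentiation test. The genes whose profiles were most like that of Tshr were the activin-type receptor Acvr1c (0.228), the lipid droplet protein Plin1 (0.252) and the mitochondrial carbonic anhydrase Car5b (0.255), with r of 0.995 to 0.999 over 12 samples.

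Mc2r and Mrap, which make the corticotropin receptor together, were both high in differentiated and low in undifferentiated cells. Mc2r had 7.20, 7.31 and 7.53 in D1D2KO differentiated cells, against 3.49, 3.48 and 3.47 in D1D2KO undifferentiated cells. In WT it had 7.34, 7.49 and 7.38 in differentiated cells, against 3.71, 3.91 and 3.58 in undifferentiated cells. All 6 undifferentiated signals of Mc2r lay under the lower quartile of every array. The differences were 3.87 in D1D2KO and 3.67 in WT (SE 0.10 each).

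Mrap had 9.90, 9.89 and 9.73 in D1D2KO differentiated cells, against 4.92, 5.08 and 5.14 in D1D2KO undifferentiated cells. In WT it had 10.07, 9.66 and 9.95 in differentiated cells, against 4.89, 4.80 and 4.37 in undifferentiated cells. The states lay more than 4 log2 units apart in each genotype, with differences of 4.79 in D1D2KO and 5.21 in WT (SE 0.13 each). In differentiated cells the genotypes overlapped for both genes and differed by -0.05 for each. In undifferentiated cells Mrap differed by 0.36 and Mc2r by -0.25, with Mc2r at signals that cannot be told from background. Among the 7 genes, Tshr and Mrap had the closest centred profiles (root mean square difference 0.371, n = 12).

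Mc5r, a melanocortin receptor that neighbours Mc2r in the genome, rose as well. It had 9.08, 8.72 and 8.10 in D1D2KO differentiated cells against 5.99, 5.55 and 5.50 in D1D2KO undifferentiated cells, a rise of 2.96 (SE 0.20, limma, Benjamini-Hochberg adjusted p = 2.9e-09). In WT it had 8.22, 7.64 and 8.14 in differentiated against 5.90, 5.66 and 5.64 in undifferentiated cells, a rise of 2.27 (adjusted p = 1.26e-07). Mc1r, Mc3r, Mc4r and Mrap2, the paralog of Mrap, passed no test in any comparison. Of the 7 other melanocortin genes measured, 1 (Mc5r) rose in D1D2KO and 2 (Mc5r and Atrn) in WT, and 0 fell in either genotype (limma; 0 fell at an unadjusted p under 0.05 as well). The Atrn call ended without WT differentiated replicates 1 or 3 or any 1 WT undifferentiated replicate. The D1D2KO count was 3 with each array centred on its median and 2 after quantile normalization. Adrenal cortex markers, as a check on the tissue where Mc2r is best known, had 0 of 6 called in D1D2KO (limma; 0 at an unadjusted p under 0.05 as well) and 1 of 6 called in WT, a fall of Hsd3b1 that was lost without WT differentiated replicate 1 or WT undifferentiated replicates 1 or 2.

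The profiles most like that of Mc2r were those of Pnpla2, the adipose triglyceride lipase, the DNA-binding protein Nabp1 and the alcohol dehydrogenase Adhfe1 (root mean square differences 0.207, 0.211 and 0.215, r = 0.996 each over 12 samples). Those most like Mrap were the amino acid transporter Slc36a2 (0.131), the acute phase protein Orm1 (0.289) and Plin1 (0.336). All of these are genes whose signals separate the 2 states, and the likeness carries no test.

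Beyond these 7, receptors as a class changed about as often as genes in general. Of 108 other measured receptors (123 were listed), 14 rose and 27 fell with differentiation in D1D2KO, which are 12.96% and 25%, beside 15.4% and 21.2% of all genes. In WT 18 rose and 24 fell, 16.67% and 22.22%, beside 14.7% and 19.4%. Ffar4, which senses long-chain fatty acids, rose by 3.15 in D1D2KO and 2.32 in WT (SE 0.11 each, limma, Benjamini-Hochberg adjusted p = 8.25e-13 and 6.63e-11). Ffar2, the short-chain fatty acid receptor, rose by 2.14 in D1D2KO and 2.07 in WT, Ptger3, a prostaglandin E receptor, by 2.00 and 1.5, and Hcar2, the Gi-coupled nicotinic acid receptor, by 1.96 and 1.68. Their families did not rise as a whole. Ptger4, another prostaglandin E receptor, fell, with differences of -0.82 in D1D2KO and -0.74 in WT (limma, adjusted p = 2.88e-06 and 1.43e-05), and the fatty acid receptors Ffar1 and Ffar3 passed no differentiation test. Ednrb, the endothelin B receptor, fell most in WT, with differences of -1.67 in D1D2KO (SE 0.09, adjusted p = 1.2e-10) and -2.40 in WT (adjusted p = 1.77e-12). These calls held without any 1 sample. Only Adra1b and Adra2c of the 9 adrenergic receptors were measured, and neither passed a test after adjustment (limma). At an unadjusted p under 0.05, 0 changed with differentiation and 2 were higher in D1D2KO than in WT undifferentiated cells. The other adrenergic receptors are not analysed here.

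**Figure D3:**
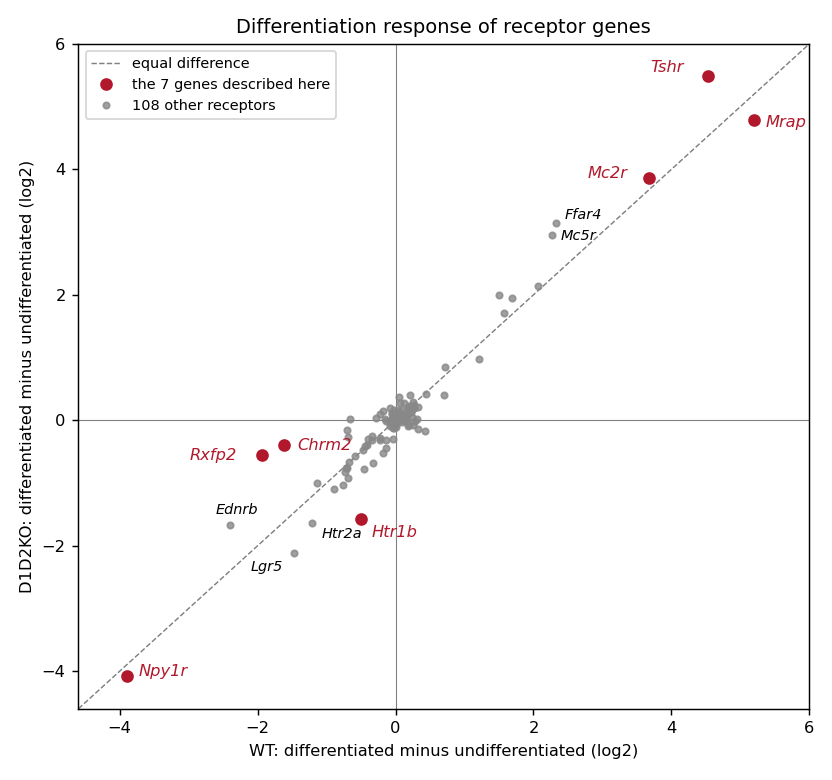
Differentiation response of receptor genes as log2 differences, differentiated minus undifferentiated, in D1D2KO cells (vertical axis) against WT cells (horizontal axis). Red points are the 7 genes described here, grey points are 108 other receptors and the dashed line marks equal differences: Tshr (5.49 in D1D2KO and 4.53 in WT) lies above the line and Htr1b (-1.58 and -0.50) below it, and most other receptors lie near 0.

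Between the genotypes the 7 genes were compared in each state. In differentiated cells the samples did not overlap for 3 of 7 (Tshr higher in D1D2KO, Htr1b and Chrm2 lower), against 30.9% of all genes. In undifferentiated cells they did not overlap for 6 of 7, all but Htr1b, against 39.3% of all genes. Of the 7 genes 0 differed by 2-fold or more in differentiated cells and 2, Chrm2 and Rxfp2, in undifferentiated cells, against 0.406% and 0.291% of all genes. At an adjusted p under 0.05 in the limma fit, 6.25% of all genes were higher and 7.42% lower in D1D2KO differentiated cells than in WT, and 4.40% were higher and 3.62% lower in undifferentiated cells. The undifferentiated split was 878 higher to 722 lower. It was 636 to 788 with each array centred on its median and 320 to 514 after quantile normalization, so a small difference there depends on the scaling.

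Among the 108 other receptors 13 were higher and 11 lower in D1D2KO differentiated cells than in WT, and 12 were higher and 8 lower in undifferentiated cells. Their median differences were 0.17 and 0.15, beside 0.03 and 0.02 over all genes. The higher calls were mostly small, and without WT differentiated replicate 2 only 4 were left in differentiated cells. After quantile normalization the calls in differentiated cells numbered 7 higher and 11 lower. In undifferentiated cells the higher calls numbered 3 without WT undifferentiated replicate 1, 1 without WT undifferentiated replicate 2, and 4, 6 and 2 without D1D2KO undifferentiated replicates 1, 2 and 3. They numbered 3 after quantile normalization. The 8 lower calls numbered 4 without WT undifferentiated replicate 2 or D1D2KO undifferentiated replicate 3, and 5 without WT undifferentiated replicate 1 or D1D2KO undifferentiated replicates 1 or 2. The largest differences were lower signals in D1D2KO and held without any 1 sample. They were those of Htr2b and Chrm3 in undifferentiated cells, as given above, and in differentiated cells that of Avpr1a, the vasopressin V1a receptor. Avpr1a had 8.72, 8.65 and 8.52 in D1D2KO against 9.43, 9.40 and 9.20 in WT, a difference of -0.71 (SE 0.10, limma, Benjamini-Hochberg adjusted p = 0.000209). Higher signals in differentiated D1D2KO cells came close to this in size. Ffar4 was higher by 0.67 and Mc5r by 0.64 (limma, adjusted p = 0.0465 for Mc5r, a call that not every left-out sample kept).

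The responses of the genotypes to differentiation were also set against each other, D1D2KO minus WT. Over all genes 0.747% had a more positive and 0.712% a more negative response in D1D2KO at an adjusted p under 0.05. For the 7 genes, which were chosen partly on such values, the difference was 1.39 (SE 0.18) for Rxfp2, 1.22 for Chrm2, 0.96 for Tshr, 0.19 for Mc2r, -0.18 for Npy1r, -0.41 for Mrap and -1.08 for Htr1b. In all 4 genes with a positive value the D1D2KO undifferentiated signal was lower than that of WT, by -1.45 for Rxfp2, -2.17 for Chrm2, -0.46 for Tshr and -0.25 for Mc2r. This gap is itself part of the response difference, so a lower signal there raises the value by arithmetic. For Tshr and Mc2r it lay at signals near or under the lower quartile. Rxfp2 was near or under that quartile in every group but WT undifferentiated. Among the other receptors 3 had a more positive response (Ffar4, Ednrb and Htr2b, the last a call that ended without most single samples) and 1 a more negative one (Pth1r, the parathyroid hormone receptor).

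Downstream of the receptors, the genes that make, sense and break down cyclic AMP changed in both directions, and a few of them rose strongly. Of 59 measured genes for G proteins, adenylyl cyclases, cyclic AMP effectors, phosphodiesterases and receptor desensitization, 12 rose and 29 fell with differentiation in D1D2KO, and 10 rose and 20 fell in WT. These are 20.34% and 49.15% in D1D2KO, beside 15.4% and 21.2% of all genes, and 16.95% and 33.9% in WT, beside 14.7% and 19.4%. The median difference was -0.22 and -0.14, beside 0.01 and 0.02 over all genes. Prkar2b, the regulatory subunit of protein kinase A typical of fat cells, had 10.85, 10.98 and 10.80 in D1D2KO differentiated cells against 6.30, 6.28 and 6.29 in D1D2KO undifferentiated cells, a rise of 4.59 (SE 0.11, limma, Benjamini-Hochberg adjusted p = 8.77e-15). In WT it had 9.89, 9.81 and 10.35 against 6.81, 6.84 and 6.70, a rise of 3.24 (adjusted p = 8.71e-13). The states were far apart in both genotypes, and D1D2KO samples stood above WT samples after differentiation.

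Gnai1, the Gi protein subunit through which Npy1r and Htr1b can act, rose by 2.93 in D1D2KO and 1.84 in WT (SE 0.11 each, limma, adjusted p = 2.31e-12 and 1.24e-09), while its relative Gnai2 fell, with a difference of -0.48, in D1D2KO (adjusted p = 0.000139). The cyclase Adcy5 rose by 1.85 in D1D2KO and 1.09 in WT (SE 0.09 each, adjusted p = 6.62e-11 and 7.7e-08). The cyclases Adcy2 and Adcy7 fell in both genotypes, Adcy2 with differences of -1.01 in D1D2KO and -0.87 in WT and Adcy7 with -0.87 and -1.12. Adenylyl cyclase genes therefore did not move together. Pde3b, the phosphodiesterase through which insulin lowers cyclic AMP in fat cells, rose by 3.46 in D1D2KO and 2.62 in WT (SE 0.11 each, adjusted p = 1.3e-13 and 6.93e-12). Pde8b fell, with differences of -2.11 in D1D2KO and -1.92 in WT, and Pde7b with -0.91 in each genotype.

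Of the regulators that end G-protein signals, Rgs2 rose by 1.88 in D1D2KO and 1.42 in WT (SE 0.08 each, limma, Benjamini-Hochberg adjusted p = 1.37e-11 and 6.85e-10). Rgs4 fell, with differences of -1.30 in D1D2KO and -0.41 in WT (SE 0.10 each, adjusted p = 2.32e-08 and 0.00568). After differentiation Rgs4 had 5.41, 5.43 and 5.59 in D1D2KO against 6.88, 6.56 and 6.74 in WT, a difference of -1.25 (adjusted p = 1.12e-06). Between genotypes 6 of the 59 genes were higher and 8 lower in D1D2KO differentiated cells, and 1 was higher and 6 lower in undifferentiated cells. These are 10.17% and 13.56%, beside 6.25% and 7.42% of all genes, in differentiated cells and 1.69% and 10.17%, beside 4.40% and 3.62%, in undifferentiated cells. The undifferentiated falls numbered 3 or 4 without D1D2KO undifferentiated replicates 1, 2 or 3 or WT undifferentiated replicates 1 or 2. They numbered 4 after quantile normalization.

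**Figure D4:**
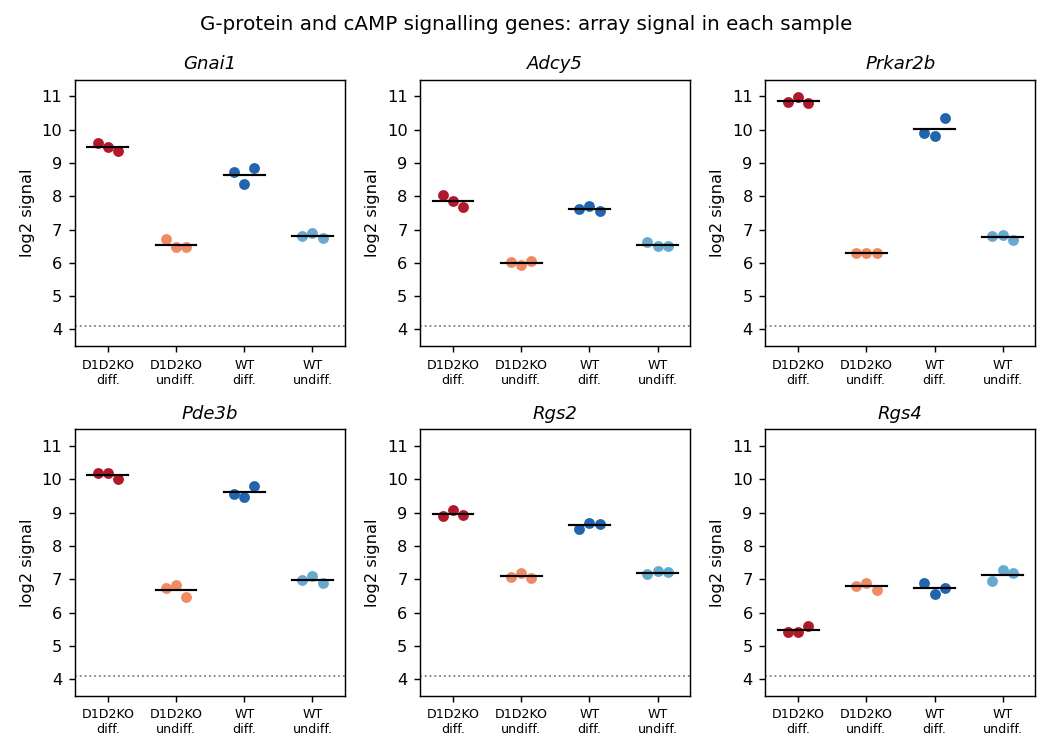
Log2 array signal (vertical axis) of 6 signalling genes in the 12 samples, grouped on the horizontal axis by genotype and state. Points are samples, bars are means of 3 and the dotted line at 4.10 is the lowest lower quartile of any array: Prkar2b, Pde3b, Gnai1, Adcy5 and Rgs2 are higher in differentiated cells of both genotypes, and Rgs4 is lowest in D1D2KO differentiated cells.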

How the data were processed

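The 12 arrays were read from the deposited table of log2 signals, 1 column per sample. Column medians lay within 0.1 of each other, and the values were taken as normalized between arrays by the authors. The summarization, the normalization method and the genome build were not given in the sources used here. No log base is stated: a maximum of 14.17 is too high for natural logs of a 16-bit scan (at most 11.09), so base 2 was assumed. Of 35556 probe sets 21789 had 1 gene in the platform annotation, 1621 had several and 12146 had none listed. A RefSeq table (GRCm38.p6) held 21698 of these 21789 identifiers and changed 0 symbols. For 999 genes with several probe sets the brightest over all samples was used, which left 19938 genes, without a filter on low signal.

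A group-means model of all 12 samples was fitted by lmFit and eBayes (limma 3.58.1, R 4.3.3). It gave 5 two-sided contrasts, with Benjamini-Hochberg adjustment over 19938 genes and calls under 0.05. The procedure was tested on simulated data. The 7 genes and all gene lists were chosen with earlier results of these data known, and the 7 genes are left out of every list count. Other genes were named by rule: up to 4 called genes with the largest difference and up to 2 uncalled genes with the highest signal per list and contrast, any receptor of the named families, the 3 most similar profiles per gene, and markers. Genome neighbours were looked up after values were seen.

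Deviations of samples with equal replicate numbers correlated at 0.101 to 0.176 between the states of D1D2KO, and at -0.147 to 0.0522 for unequal numbers, so the numbers were taken to pair samples there. In the other comparisons at least 1 pair was at 0.1 or lower. Alternatives were array centring, quantile normalization, the mean of probe sets, dropping genes below the median signal, only the groups compared, trended robust eBayes, array weights, a 2-fold minimum, a replicate block and leaving out each sample.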

Additional observations from a re-analysis of the deposited data

Results flagged for a closer look

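For 10 genes of the receptor and signalling lists outside the 7 described, the response to differentiation differed between D1D2KO and WT by the test of the difference itself (limma, Benjamini-Hochberg adjusted p over 19938 genes). Over all genes 0.747% had a more positive and 0.712% a more negative response in D1D2KO. The difference, D1D2KO response minus WT response, was positive for 8 of them. It was 1.35 for the kinase subunit Prkar2b (adjusted p = 0.000473), 1.08 for Gnai1 (0.00271), 0.97 for Bche (0.0136), 0.83 for Pde3b (0.0103), 0.83 for Ffar4 (0.0137), 0.76 for Adcy5 (0.00718), 0.72 for Ednrb (0.00702) and 0.68 for Htr2b (0.044). It was negative for Rgs4, at -0.90 (adjusted p = 0.00559), and for Pth1r, at -0.61 (0.0103). Prkar2b, Gnai1, Pde3b, Ffar4 and Adcy5 rose further in D1D2KO, and Bche passed the differentiation test only there. Ednrb fell less in D1D2KO, and Htr2b fell in WT and differed by 0.01 in D1D2KO. In undifferentiated cells all D1D2KO samples of Prkar2b, Gnai1, Pde3b, Adcy5, Bche and Ednrb lay below all WT samples. Over all genes 39.3% did not overlap there, in either direction. After differentiation the genotypes overlapped for Ednrb and for Adcy5, at 8.03, 7.85 and 7.67 in D1D2KO against 7.62, 7.71 and 7.56 in WT. The Htr2b call ended without any 1 of D1D2KO differentiated replicates 1, 2 or 3, D1D2KO undifferentiated replicates 1 or 2, WT differentiated replicates 1 or 3, or WT undifferentiated replicates 1, 2 or 3. Without D1D2KO undifferentiated replicate 1 its value was 0.62. The other 9 calls held without any 1 sample. Adipocyte markers as a list moved beside these: 6 of 10 were higher in D1D2KO differentiated cells than in WT, beside 6.25% of all genes, though 2 without WT differentiated replicate 2, 3 without D1D2KO differentiated replicates 1 or 2 and 4 without WT differentiated replicate 1, and their mean signal was 10.3 to 10.6 in D1D2KO and 9.97 to 10.2 in WT differentiated samples. In undifferentiated cells 1 of the 10 markers was higher and 2 were lower in D1D2KO than in WT, beside 4.40% and 3.62% of all genes. The lower calls still numbered 2 with any 1 sample left out, and the higher call ended without D1D2KO undifferentiated replicates 1 or 3. The part of the extent of differentiation in these differences was not tested.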

How the results depend on the processing

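Of 210 values of the 7 genes' differences under alternatives, 196 moved by less than the spread between replicates, and 5 changed sign, all of them small differences between genotypes in differentiated cells: Npy1r and Mc2r (0.055) after quantile normalization, Mc2r (0.018) without D1D2KO differentiated replicate 1, Rxfp2 (0.004) without D1D2KO differentiated replicate 3 and Mrap (0.035) without WT differentiated replicate 1. Quantile normalization moved Npy1r to -4.22 (D1D2KO differentiation), -0.033 (genotypes, differentiated) and -0.44 (difference of responses), Mc2r to 3.54 (WT differentiation), -0.39 (genotypes, undifferentiated) and 0.44 (difference of responses), and the difference of responses to 1.16 for Tshr and -0.22 for Mrap. Array weights moved Chrm2 to -0.30 (D1D2KO differentiation), -0.85 (genotypes, differentiated) and 1.33 (difference of responses). Leaving out each sample in turn gave Rxfp2 ranges of -2.13 to -1.83 (WT differentiation), -1.64 to -1.34 (genotypes, undifferentiated) and 1.28 to 1.58 (difference of responses). Counts of called genes depended more on the setting. A 2-fold minimum left 1294 genes for D1D2KO differentiation, 916 for WT differentiation, 81 and 58 between genotypes in differentiated and undifferentiated cells, and 39 for the difference of responses. Between genotypes the 2726 calls of differentiated cells were 1184 with only the groups compared and 1344 to 2822 with each sample left out, lowest without WT differentiated replicate 2. The 1600 calls of undifferentiated cells were 834 after quantile normalization, 881 among genes above the median signal, 4224 with array weights, 2597 with only the groups compared and 339 to 1864 with each sample left out, lowest without WT undifferentiated replicate 2. The 291 differences of response were 537 among genes above the median signal, 450 with trended robust eBayes, 604 with array weights and 159 to 449 with each sample left out. The causes were not tested. With the replicate number as a block, 7682 genes were called for D1D2KO differentiation, where the numbers were taken to pair samples, against 7311 without it. In the other comparisons the samples share only a number, and the block gave 6240 calls for WT differentiation, 1052 and 3232 between genotypes in differentiated and undifferentiated cells and 265 for the difference of responses. Of 240 results for other named genes 195 kept their call and 45 lost it, all in the same direction. Signals near the lower quartile, as in undifferentiated Tshr and Mc2r, differentiated Npy1r and most Rxfp2 samples, give no reliable size of fold.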
